A study of Mus musculus with 8 samples.

Results

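Ovulation needs the wall of the follicle to be broken down and the matrix around the oocyte to be rebuilt, and 9 mouse genes that encode proteases of this process, or an inhibitor of them, were examined for open chromatin. They were Plau, Plat, Serpine2, Adamts1, Adamts4, Adamts5, Adamts9, Ctsl and Mmp2, 9 of 21631 protein-coding genes on chromosomes 1 to 19 and X. Every peak that overlapped one of these gene bodies (GRCm38 coordinates) or the 50 kb on either side was taken from the 8 deposited peak lists. Overlapping peaks were merged across the 8 libraries, which gave 127 regions around the 9 genes among 98245 in all. Of these 127 regions, 48 lay inside the body of one of the 9 genes, and 90 had an end of one of the 9 as the nearest gene end. The windows of Adamts1 and Adamts5, neighbours on chromosome 16, shared 2 regions.

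The data are ATAC-seq, in which the Tn5 transposase cuts accessible DNA, from granulosa cells, which line the follicle and enclose the oocyte. All mice were 21 days old and had received 5 IU of eCG (also called PMSG), which drives follicle growth. After 46 h they were killed or were given 5 IU of hCG, which mimics the luteinising hormone (LH) surge, and were killed 6 h later. Each library pooled 2 to 3 mice, and each of the 4 groups had 2 libraries.

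In the LH experiment, wild-type CBA x C57BL/6 F1 mice gave 2 libraries titled hCG, with a peri-ovulatory source name, and 2 titled PMSG, with a pre-ovulatory source name. The time tags of these 4 libraries contradict their titles (0 h on hCG, 6 h on PMSG), and the titles were followed. In the PR experiment, all mice were of the strain C.129S7(B6)-Pgrtm1Bwo/OmcJ, which carries a targeted allele of Pgr, the progesterone receptor gene, and were wild type (WT) or knockout (KO) for it. These 4 libraries are tagged 6 h, have a pre-ovulatory source name, and are placed after hCG by the series' design text. Group-only calls and tests within a pair of groups were made within each experiment. Strain separates the 2 experiments, so where values of both are set side by side, or patterns over 8 libraries are counted, a difference between experiments cannot be told apart from strain.

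Urokinase (Plau) and tissue-type plasminogen activator (Plat) cut plasminogen into plasmin, a broad protease of the follicle wall, and Serpine2 (protease nexin-1) blocks both activators and plasmin. ADAMTS proteases cleave versican and related proteoglycans, among them those of the matrix that forms around the oocyte, cathepsin L degrades protein in lysosomes and outside the cell, and Mmp2 is a gelatinase that degrades basement membrane collagen. Adamts1 and Ctsl are known as genes whose ovulatory induction in granulosa cells is reduced in mice without the progesterone receptor.

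The 4 genes with an entry in the RefSeq promoter table (build GRCm38.p6) were Adamts1, Adamts9, Ctsl and Serpine2, all on the minus strand. All 8 libraries held a peak over each of these starts, so the 250 bases before the start are shown as the sequence beside a start open in every group. The peaks of all 8 libraries covered the whole stretch at Adamts1, Adamts9 and Serpine2. At Ctsl the peak of hCG 1 covered it, and the peaks of the other libraries ended within it, so the first bases printed for Ctsl lay outside them. Capitals mark matches to the motifs searched.
Adamts1: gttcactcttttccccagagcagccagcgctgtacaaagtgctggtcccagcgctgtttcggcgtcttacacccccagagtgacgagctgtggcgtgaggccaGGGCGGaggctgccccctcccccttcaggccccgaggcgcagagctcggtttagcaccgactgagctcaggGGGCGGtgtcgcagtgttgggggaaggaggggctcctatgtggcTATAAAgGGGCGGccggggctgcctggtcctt
Adamts9: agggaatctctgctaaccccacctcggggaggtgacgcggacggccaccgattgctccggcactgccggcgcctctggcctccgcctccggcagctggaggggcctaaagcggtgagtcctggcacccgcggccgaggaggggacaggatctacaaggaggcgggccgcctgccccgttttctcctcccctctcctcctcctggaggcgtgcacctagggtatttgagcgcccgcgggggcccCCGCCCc
Ctsl: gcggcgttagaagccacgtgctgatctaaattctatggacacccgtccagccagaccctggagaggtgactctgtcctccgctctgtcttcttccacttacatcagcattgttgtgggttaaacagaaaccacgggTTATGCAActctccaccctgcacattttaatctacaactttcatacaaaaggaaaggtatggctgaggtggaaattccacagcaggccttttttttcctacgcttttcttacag
Serpine2: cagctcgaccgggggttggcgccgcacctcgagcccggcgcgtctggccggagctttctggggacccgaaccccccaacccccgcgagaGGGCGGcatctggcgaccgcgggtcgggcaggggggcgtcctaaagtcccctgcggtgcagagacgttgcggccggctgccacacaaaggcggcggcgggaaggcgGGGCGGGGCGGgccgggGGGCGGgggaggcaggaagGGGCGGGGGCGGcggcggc

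These stretches are chr16:85803114-85803363 (Adamts1), chr6:92943535-92943784 (Adamts9), chr13:64370521-64370770 (Ctsl) and chr1:79858666-79858915 (Serpine2), each printed 5′ to 3′ toward the gene. GC content was 65.6% for Adamts1, 71.2% for Adamts9 and 78.8% for Serpine2, all above the 61.6% median of the 12912 promoters whose starts all 8 libraries held. Ctsl stood at 47.2%, below that median and below the 52.4% median of all 32851 promoters.

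The GC box GGGCGG occurred 3 times before Adamts1, once before Adamts9 (as CCGCCC, on the other strand) and 6 times before Serpine2, with a pair of matches there sharing 1 base. It occurred in none of the 250 bases before Ctsl. Of all promoters 32.7% held it, and of those with a start held by all 8 libraries 64.1%. The TATA box TATAAA stood before Adamts1 alone of the 4, from base -32 to base -27 counted from the start, and 12.4% of all promoters held it, or 5.03% of those with a start held by all 8 libraries. The C/EBP motif TTGCNNAA matched once before Ctsl, on the other strand as TTATGCAA, and 9.56% of all promoters held it, or 6.54% of those with a start held by all 8.

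Both strands of the 4 promoters were also searched for the NF1 palindrome, the CRE TGACGTCA, the AP-1 motif TGANTCA, the RUNX motif TGTGGT, the NR5A motif AAGGTCA, the steroid receptor palindrome and the GATA motif AGATAA. None of these motifs stood in any of the 4 windows. Their shares over all promoters were 0.0365%, 1.55%, 6.75%, 14.0%, 4.08%, 0.387% and 9.99% in that order.

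The peak lists differed in length. They held 55654 (KO 2) to 84313 (WT 2) intervals and covered 29.8 Mb (PMSG 1) to 43.9 Mb (WT 1), and both WT lists were longer than both KO lists. Both hCG lists were longer than both PMSG lists, with 65567 and 62327 against 57992 and 58780 intervals, and covered 39.0 and 38.2 Mb against 29.8 and 29.9 Mb. KO 2 covered 31.7 Mb against 38.9 Mb in KO 1. Read counts per library were not used here, so depth is unknown. Most counts are therefore also given for equally long lists, made from the intervals of highest fold (57992 for each LH library, 55654 for each PR library). The LH counts of the pathway lists are for all peaks only. Markers of granulosa cells had a peak at 2 to 4 of 6 genes in each library. Foxl2 and Fshr were held in all 8, Cyp19a1 in 7 (all but WT 2) and Inha and Nr5a2 in none at the listed start. Amh had a peak over a gene end in hCG 2 alone. Markers of theca and stroma had a peak at 0 to 2 of 4 genes (Pdgfra and Col1a1 at 0). Those of endothelium had a peak at 0 or 1 of 4. Cdh5 was held over a gene end in 7 libraries, all but KO 2, and Pecam1, Tek and Emcn in none. Those of leukocytes had a peak at 0 or 1 of 4 (Ptprc, Adgre1 and Csf1r at 0). Those of the oocyte had a peak at 1 of 4 (Gdf9 in all 8, with Bmp15, Zp3 and Oosp1 at 0). The start of Cd68, a leukocyte marker, was held by both hCG libraries and by none of the other 6. The start of Tcf21, a stromal marker, was held by both hCG, both WT and KO 1, and by neither PMSG library. In the same list, Cyp17a1, a theca marker, had a peak over a gene end in PMSG 2 and WT 1 and in no hCG library.

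In the LH experiment, more regions around the protease genes were open only after hCG than only before it. A region was called hCG-only when both hCG libraries and neither PMSG library held a peak in it, and PMSG-only in the reverse case. Among the 108 regions around the 9 genes, 27 were hCG-only (25%), against 17.7% of all 81943 regions of this experiment. PMSG-only regions numbered 10 (9.26%, against 10.4% of all regions), and 53 were held by all 4 libraries (49.1%, against 49.9%). At least 1 hCG-only region stood around 6 of the 9 genes, as around 55.1% of all genes, and at least 1 PMSG-only region around 6, as around 36.6% of all genes. The hCG-only regions fell to 6 genes: Plau with 8, Serpine2 with 7, Adamts9 with 5, Plat and Ctsl with 3 each and Adamts1 with 1. Adamts4, Adamts5 and Mmp2 had none. Of the 16 marker genes of other cell types, Cd68 and Tcf21 showed the same split between hCG and PMSG, while Cyp17a1 was held by PMSG 2 and by neither hCG library. Their part in these counts was not tested.

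With lists of equal length, 20 of 98 regions were hCG-only (20.4%, against 15.4% of all regions) and 17 were PMSG-only (17.3%, against 13.3%). The gap between the 2 counts was thus narrower with equal lists. By gene, hCG-only and PMSG-only counts became 6 and 2 at Plau, 5 and 3 at Serpine2 and 2 and 0 at Plat. They were 5 and 3 at Adamts9, 2 and 4 at Ctsl, 0 and 2 at Adamts1 and 0 and 4 at Adamts5. Adamts4 and Mmp2 had 0 of either kind. Equal lists ranked by −log10 q gave 21 hCG-only regions of 102 (20.6%, against 15.6% of all regions) and 11 PMSG-only ones (10.8%, against 13.4%). With 2 libraries a group and no read counts, no region was tested singly.

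**Figure D1:**
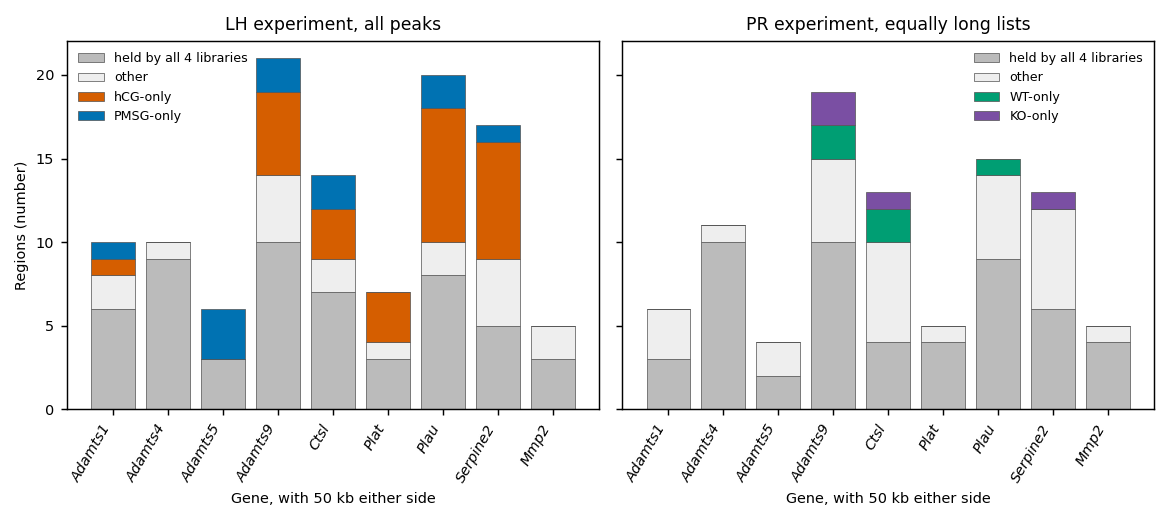
Number of regions around each gene (gene body with 50 kb either side), split by which libraries held them, for all peaks of the LH experiment (left) and for equally long lists of the PR experiment (right). On the left, Plau and Serpine2 have 8 and 7 hCG-only regions and Adamts5 has 3 PMSG-only regions and no hCG-only one; on the right, WT-only and KO-only regions number 5 and 4 over the 9 genes.

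With all peaks and 50 kb flanks, Plau had the most hCG-only regions, 8 of its 20, and 1.21% of all protein-coding genes had 7 or more. In equally long lists it had 6 of 17. Its count was 3 with 10 kb flanks and 1 in the gene body, where Adamts9 had 5 and 5 and Serpine2 5 and 4. The Plau region of highest rank by fold enrichment, chr14:20850559-20850948, lay 7.17 kb above the gene's upper end. Its fold over the caller's background was 10.1 and 11.5 in the hCG libraries, 10.1 and 15.0 in WT and 11.1 and 11.3 in KO, and neither PMSG library held a peak there. Thus all 6 libraries that are placed after hCG held it, with and without the progesterone receptor. Below the gene, chr14:20811403-20811709 had folds of 6.52 and 7.43 in hCG and 6.76 and 6.61 in WT, with no peak in PMSG or KO. Another region, chr14:20805108-20805900, had folds of 6.67 and 7.12 in hCG, 5.32 and 6.95 in WT and 5.37 and 5.91 in KO. These regions lie 24.95 and 30.8 kb below Plau, where an end of Camk2g is nearer than Plau. The same holds for its hCG-only regions chr14:20811931-20812274 and chr14:20796299-20796494.

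Plau also had 2 PMSG-only regions, a number reached by 13.1% of all genes. At chr14:20855025-20855259, 11.6 kb above the gene, the folds were 8.93 and 9.29 in PMSG, and no other library of the 8 held a peak. At chr14:20871397-20871720 they were 5.30 and 4.43 in PMSG and 3.64 in WT 1. The urokinase locus therefore held regions of both kinds, on the same side of the gene.

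The peak over the lower end of the Plau body was held by all 8 libraries. Its fold was 9.03 and 9.21 in hCG and 13.2 and 14.7 in PMSG, and 8.67 and 9.49 in WT against 6.76 and 9.86 in KO. The LH groups did not overlap, with PMSG higher, while KO values lay on both sides of WT. Its rank percentile within equally long lists (100 is the highest fold) was 51.4 and 51.0 in hCG and 76.5 and 81.9 in PMSG.

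Plat, the tissue-type activator, had 3 hCG-only regions of 7 and no PMSG-only one, and 15.1% of all genes had 3 or more hCG-only regions. All 3 stood inside the gene body, the nearest 5.19 kb and the farthest 8.06 kb from its lower end. At chr8:22762909-22763590 the folds were 6.26 and 6.62 in hCG, 9.58 and 10.1 in WT and 6.48 and 6.82 in KO. The neighbouring chr8:22763910-22764632 had 4.73 and 5.89 in hCG, 5.52 and 6.50 in WT and 4.67 and 5.28 in KO. In both regions PMSG had no peak and both WT values exceeded both KO values, though these folds come from lists of different length. Both WT folds also exceeded both KO folds at 50.7% of the listed starts held by the 4 PR libraries. The share over regions away from starts is not given here. Farther into the body, chr8:22765784-22765976 was weaker, with 3.51 and 3.60 in hCG, 3.95 and 3.49 in WT and no peak in PMSG or KO.

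Serpine2, the inhibitor of both activators, had 7 hCG-only regions of 17 and 1 PMSG-only region. In equally long lists it had 5 and 3 of 14. With all peaks, 1.21% of all genes had 7 or more hCG-only regions and 36.6% had 1 or more PMSG-only ones. The hCG-only region of highest rank, chr1:79746080-79746440, lay 47.9 kb below the gene, inside Wdfy1. Its folds were 11.6 and 12.0 in hCG, 15.2 and 16.6 in WT, and 13.3 in KO 1 against 4.99 in KO 2. Within the Serpine2 body, chr1:79830013-79830395 had 9.40 and 10.2 in hCG, 6.32 and 10.8 in WT and 6.53 in KO 1, with no peak in KO 2. Also in the body, chr1:79807015-79807651 had 8.68 and 8.02 in hCG, 6.23 and 6.35 in WT and 5.14 and 3.85 in KO. The KO libraries thus differed from each other at each of these sites, with KO 2 the lower or without a peak. The PMSG-only region, chr1:79852033-79852270, had weak peaks of 4.90 and 4.08 in PMSG and 3.38 in WT 1.

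**Figure D2:**
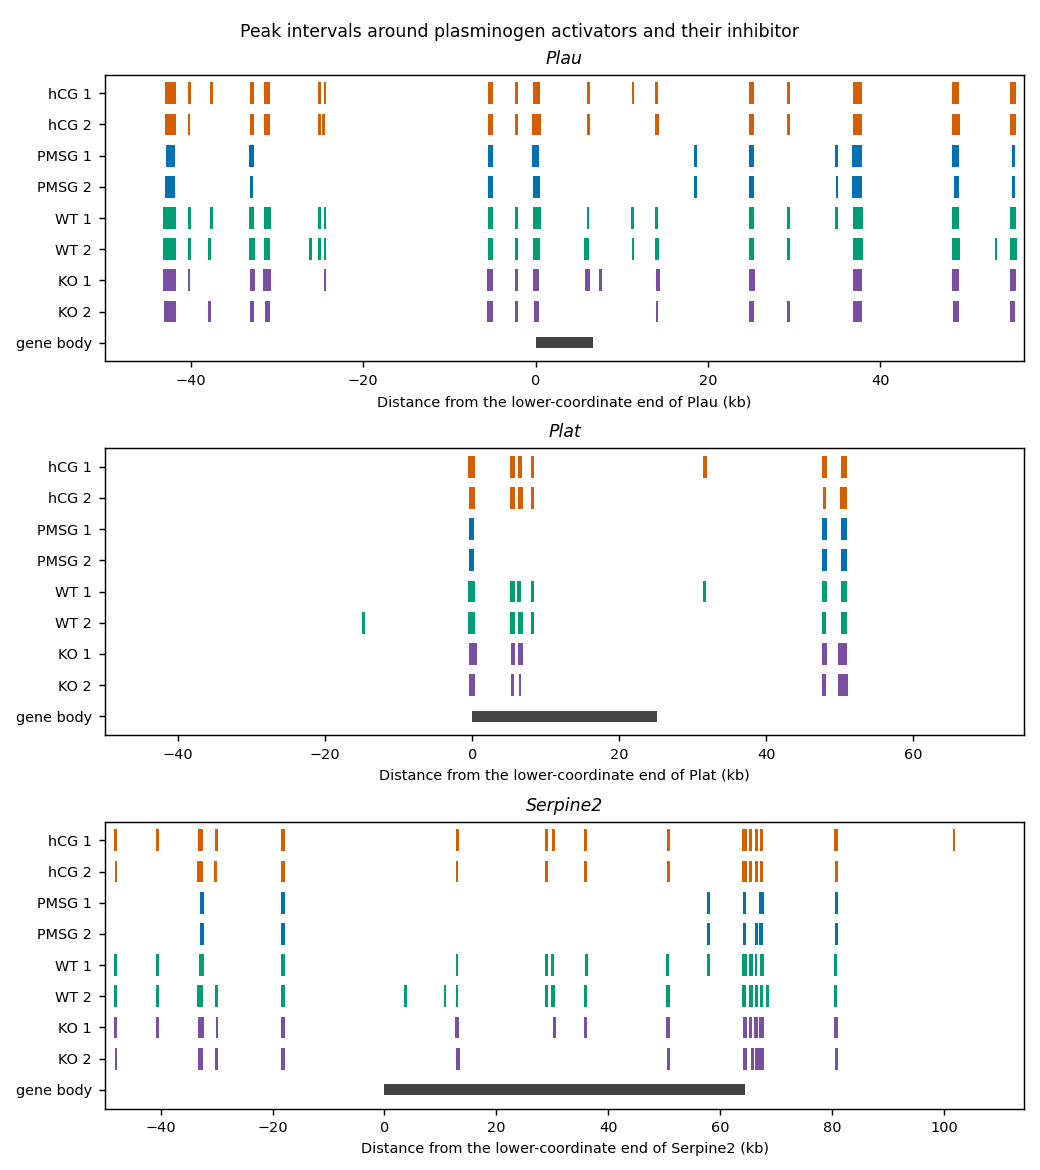
Peak intervals of the 8 libraries around Plau, Plat and Serpine2, drawn to scale by distance in kb from the lower-coordinate end of each gene body (dark bar). The 3 intervals inside Plat near its lower end are present in hCG and absent in PMSG, and 7 regions of Serpine2 and 8 of Plau show the same split.

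Adamts9, a protease of proteoglycans and the longest of the 9 genes at 171.8 kb, had 5 hCG-only and 2 PMSG-only regions of 21. All 5 hCG-only regions lay inside its body, and 3.93% of all genes had 5 or more, although its window is also the longest of the 9. At chr6:92884566-92885015 the folds were 10.8 and 12.5 in hCG, 10.3 and 9.86 in WT and 8.47 and 5.13 in KO. At chr6:92904136-92904658 they were 6.84 and 7.79 in hCG and 4.76 in WT 2, with no peak in the other PR libraries. Also in the body, chr6:92877207-92877475 had 5.57 and 6.78 in hCG, 6.01 and 8.15 in WT and 6.11 in KO 1. In all 3, KO 2 held the lowest value or no peak. At chr6:92825146-92825583, also hCG-only and in the body, KO 2 instead had the highest fold. It was 7.08, against 6.02 in KO 1, 4.94 and 6.32 in WT and 5.12 and 5.32 in hCG. At the remaining one, chr6:92864025-92864482, KO 2 had no peak.

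The PMSG-only regions of Adamts9 differed in the PR libraries. At chr6:92860352-92860777, inside the gene, the folds were 9.47 and 7.53 in PMSG, and no other library of the 8 held a peak. At chr6:92993011-92993473, 48.6 kb above the gene, PMSG had 10.7 and 9.64, WT 7.87 and 6.05 and KO 1 5.38. Without hCG 1, or without PMSG 1, Adamts9 had 4 PMSG-only regions.

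Adamts5, an aggrecanase, was the reverse of the plasminogen genes: 3 of its 6 regions were PMSG-only and the other 3 were held by all 4 LH libraries. Of all genes, 4.78% had 3 or more PMSG-only regions within 50 kb. The region of highest rank, chr16:85853904-85854781, lay 3.38 kb below the gene. Its folds were 16.4 and 16.8 in PMSG, with a mean rank percentile of 90.3, and no hCG library held a peak. In the PR libraries the folds were 12.0 and 4.96 in WT and 4.16 and 6.57 in KO, so WT 1 was the nearest to the PMSG values and still below them. At chr16:85820121-85820356, 37.8 kb below Adamts5 and nearer to Adamts1, at 17.0 kb, the folds were 10.02 and 11.7 in PMSG, and none of the other 6 libraries held a peak. In the gene body, chr16:85874017-85874487 had 7.79 and 7.04 in PMSG and 4.97 in WT 1.

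Adamts1, a versican-cleaving protease of the ovulatory matrix, had a single hCG-only region, chr16:85794891-85795558 in its body, with low folds of 2.41 and 2.52 in hCG, 2.38 and 3.31 in WT and none in PMSG or KO. Its mean rank percentile was 0.569, and Adamts1 had 0 hCG-only regions in equally long lists by fold, 1 by −log10 q, and 2 in the best 20000 intervals or at a −log10 q of 20 or more. Without PMSG 1, or without PMSG 2, the count at Adamts1 was 2. A region shared with the window of Adamts5, chr16:85822305-85822860, lay 19.2 kb above Adamts1 and was held by all 8 libraries at different levels. The folds there were 15.0 and 14.9 in hCG, 7.86 and 5.93 in PMSG, 15.7 and 19.7 in WT and 15.8 and 14.3 in KO. The PMSG pair was the lowest of the 4 groups, and the WT and KO values overlapped. The 2 regions shared with Adamts5 thus differed in direction, one higher in hCG and the other held only in PMSG.

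Ctsl, which encodes cathepsin L, had 3 hCG-only and 2 PMSG-only regions of 14. In equally long lists it had 2 and 4 of 12, so the balance turned. With all peaks, 15.1% of all genes had 3 or more hCG-only regions and 13.1% had 2 or more PMSG-only ones. At chr13:64397977-64398448, 27.2 kb above the gene, the folds were 8.20 and 8.77 in hCG, 5.53 and 7.69 in WT and 5.63 in KO 1. At chr13:64345985-64346179 they were 5.72 and 4.87 in hCG and 4.90 in WT 2. Just below the gene, chr13:64360673-64361602 had 3.51 and 2.77 in hCG and 4.28 and 4.49 in WT, with no peak in PMSG or KO. The PMSG-only regions had 7.39 and 7.01 at chr13:64324736-64324898 and 3.42 and 4.08 at chr13:64401777-64402327, and both were also held by both WT and neither KO library. At the former an end of Prxl2c is nearer than Ctsl, and at the latter an end of Cdk20.

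Adamts4, an aggrecanase, had no group-only region in the LH experiment: 9 of its 10 regions were held by all 4 libraries. Its window holds 9 other genes, the most of any of the 9 members. The 1 region inside Adamts4, at chr1:171256967-171257442, had folds of 7.82 and 8.22 in hCG, 12.6 and 9.47 in PMSG, 12.2 and 10.5 in WT and 10.98 and 6.60 in KO. Mmp2, the gelatinase, likewise had 0 group-only regions among its 5. The hCG-only count became 1 at Adamts4 without PMSG 2 and 1 at Mmp2 without hCG 1 or without PMSG 1. Its strongest region, chr8:92818195-92818527, 8.76 kb below the gene, had 15.1 and 14.9 in hCG, 18.6 and 17.7 in PMSG, 16.4 and 16.7 in WT and 12.5 and 14.2 in KO.

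The PR libraries show how the LH split looked in other mice after hCG. Of the 27 hCG-only regions, 24 were held by both WT libraries (78.6% of all hCG-only regions in the genome were), and all 27 by at least 1 (92.6%). Both KO libraries held 12 of the 27 (41.8% of all), neither held 7 (33.7%), KO 1 alone held 7 (21.6%) and KO 2 alone held 1 (2.89%). Of the 10 PMSG-only regions, 4 were held by both WT libraries (43.1%), 1 by both KO libraries (15.4%), 8 by neither KO library (59.1%) and 3 by no PR library (19.4%). Those 3 are the ones named above in Adamts9, above Plau and between Adamts1 and Adamts5.

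All 8 libraries held 47 of the 127 regions (37.0%, against 37.9% of all regions), or 40 of 102 in equally long lists (39.2%, against 38.3%). Only the PMSG pair held 3 (against 1.68%), or 4 in equally long lists (against 4.2%). Regions held by both hCG, both WT and both KO libraries and by no PMSG library numbered 11 of 127, against 5.88% of all regions. Serpine2 had 4 of them, Plau 3, and Adamts9 and Plat 2 each. In lists cut to the same length for all 8 libraries, 5 of 102 had this pattern, against 5.17% of all regions, so the share around the protease genes was then close to the background. Without KO 2 the count of 11 became 18. Another 5 regions, 1 each at Adamts1, Ctsl, Plat, Plau and Serpine2, were present in both libraries of hCG and of WT and absent from PMSG and KO (2.41% of all regions). In equally long lists 1 region had this pattern, at Plau, against 1.03% of all regions, and without KO 1 the count of 5 became 12.

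In the PR experiment, 18 of 123 regions around the 9 genes were WT-only (14.6%, against 12.1% of all 91502 regions) and 0 were KO-only (against 0.0842%). Ctsl had 7 of the 18, Adamts1 and Adamts9 3 each, Plau 2, and Plat, Serpine2 and Mmp2 1 each. Of those in the Ctsl window, the regions starting at 64324759, 64332343 and 64335406 lay nearer to an end of Prxl2c than to Ctsl. Those starting at 64402081 and 64411282 lay nearer to an end of Cdk20. Those starting at 64360672 and 64361385, just below Ctsl, fell in 1 region when all 8 libraries were merged. The WT-only count of 18 was 32 without WT 1 and 31 without KO 1, and the KO-only count was 1 without WT 2 or without KO 2. At single genes, the WT-only count of Adamts9 was 7 without WT 1 and 6 without KO 1, that of Plau 4 to 5 without WT 1, KO 1 or KO 2, and that of Serpine2 4 without WT 1 or KO 1 and 2 without WT 2. That of Plat was 2 without WT 1 or WT 2, that of Adamts5 2 without WT 2 and that of Adamts4 1 without WT 1 or KO 2. At Ctsl no left-out library moved the count of 7 by 1.5 times, though leaving 1 out can scarcely lower such a count. The longer WT lists enter the WT-only counts. In equally long lists 5 of 90 regions were WT-only (5.56%, against 4.25%) and 4 were KO-only (4.44%, against 4.16%), which is near the background on both sides. All 4 libraries held 51 (56.7%, against 56.2%). With equal lists ranked by −log10 q in place of fold, the counts of 91 regions were 6 WT-only (6.59%, against 2.78%) and 1 KO-only (1.10%, against 2.5%).

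Of the 5 WT-only regions in equally long lists, 2 were at Ctsl, 2 at Adamts9 and 1 at Plau, and 3.68% of all genes had 2 or more (21% had 1 or more). At chr13:64332343-64332607, 29.3 kb below Ctsl, WT had folds of 9.28 and 9.12 and neither KO library held a peak. The LH libraries, whose mice all have the progesterone receptor, held it too, with 11.8 and 10.3 in hCG and 11.2 and 9.60 in PMSG. At chr13:64324759-64324908 WT had 7.64 and 7.54 and KO no peak, with PMSG but not hCG peaks as given above. For both of these regions an end of Prxl2c is nearer than Ctsl.

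At Adamts9, chr6:92896191-92896807 had 7.28 and 6.41 in WT, 6.33 in hCG 1 and no other peak, and chr6:92869092-92869818 had 6.09 and 6.74 in WT and no peak in the other 6 libraries. At Plau, chr14:20811404-20811597 had 6.76 and 6.61 in WT and is the region described above. None of these 5 was held by a KO library in the full lists. By contrast, all 4 KO-only regions of the equally long lists (2 in Adamts9, 1 each at Ctsl and Serpine2) were held by both WT libraries in the full lists. Of all genes 5.78% had 2 or more KO-only regions and 21.4% had 1 or more. In Adamts9, chr6:92846072-92846893 had 2.81 and 2.92 in WT and 3.79 and 4.59 in KO, and chr6:92827410-92827968 had 5.48 and 4.46 in WT and 4.45 and 4.07 in KO. At Ctsl, chr13:64400933-64401364 had 5.44 and 4.62 in WT and 3.75 and 4.72 in KO. At Serpine2, chr1:79858357-79859174, which spans the start, had 3.97 and 3.11 in WT and 3.81 and 3.31 in KO.

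Held by all 6 libraries from mice with the progesterone receptor and by neither KO library were 2 of the 127 regions, both below Ctsl, against 0.717% of all regions. One is the region at 64332343 above. The other, chr13:64335406-64335724, had folds of 4.65 and 4.58 in hCG, 6.48 and 4.79 in PMSG and 5.50 and 7.24 in WT, and it too lies nearer to an end of Prxl2c. In equally long lists the count was 1 of 102, against 0.301% of all regions.

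**Figure D3:**
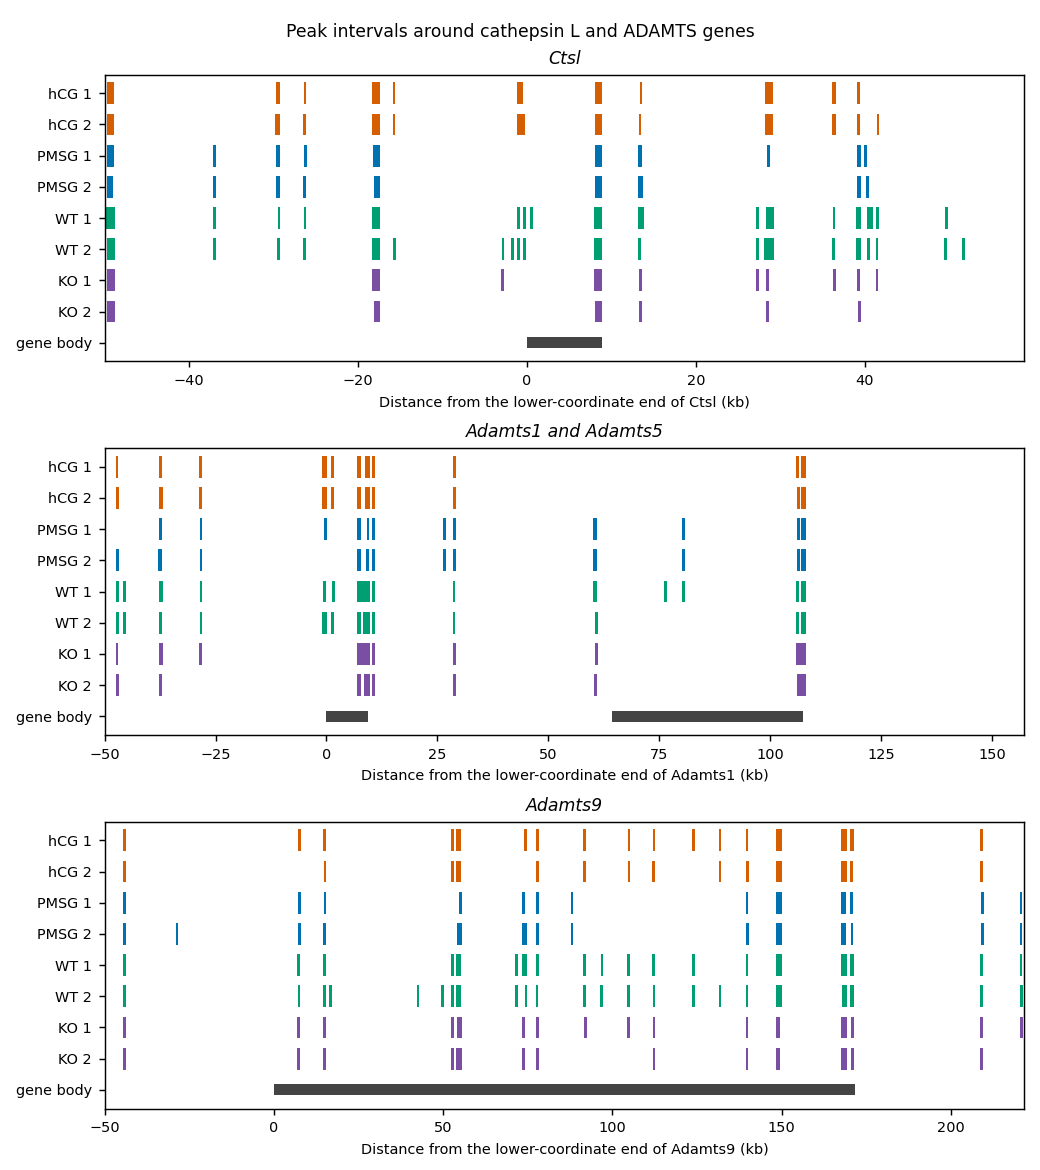
Peak intervals of the 8 libraries around Ctsl, around Adamts1 and Adamts5 together, and around Adamts9, drawn to scale by distance in kb from the lower-coordinate end of the gene body (dark bars; Adamts1 for the shared map). Below Ctsl, 2 regions at 29.3 and 26.2 kb, both nearer to an end of Prxl2c, are present in the 6 libraries with Pgr and absent from KO. In the window of Adamts5, 3 regions are present in PMSG and absent from hCG, 1 of them nearer to Adamts1.

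The length of sequence in peaks gave 1 value per library and gene. Summed over the windows of the 9 genes, peaks took 0.148% and 0.145% of the list's covered sequence in hCG and 0.130% and 0.129% in PMSG. The means were 0.147% ± 0.00219 (SD, n = 2) and 0.129% ± 0.000298 (SD, n = 2), and both hCG values were above both PMSG values. The exact two-sided permutation test gave p = 0.333, the smallest p that 2 against 2 libraries can give. The difference of 0.0172 percentage points became 0.00266 with equally long lists. In WT the values were 0.145% and 0.150% (mean 0.147% ± 0.00338, SD, n = 2) and in KO 0.148% and 0.145% (mean 0.146% ± 0.00187, SD, n = 2). These groups overlapped (exact two-sided permutation p = 0.667), and the difference of 0.00113 points turned to -0.0141 with equally long lists, to -0.00125 without WT 2 and to -0.000191 without KO 2.

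By gene, Serpine2 took 199 ± 19.4 bp per Mb of the list in hCG and 109 ± 0.195 in PMSG (SD, n = 2), a ratio of 1.82. Plat took 106 ± 4.74 and 69.8 ± 1.42 (SD, n = 2), a ratio of 1.52. Adamts5 took 57.6 ± 0.409 in hCG and 109 ± 4.61 in PMSG (SD, n = 2), a ratio of 0.530. In all 3 the hCG and PMSG libraries did not overlap, and 4.46% of genes were at least 1.5 times higher in hCG without overlap and 4.53% at least 1.5 times higher in PMSG. With equally long lists by fold the ratio was 1.32 for Serpine2, 1.53 for Plat and 0.430 for Adamts5. For Adamts1 it was 1.28 with all peaks, 0.732 with equally long lists by fold and 1.33 with equally long lists by −log10 q, so its direction turned with the ranking by fold.

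Between WT and KO with all peaks, Ctsl was the only 1 of the 9 genes to differ by at least 1.5 times without overlap, as 2.34% of all genes did in that direction. It took 191 ± 0.165 bp per Mb in WT and 110 ± 16.4 in KO (SD, n = 2), a ratio of 1.73. In sequence length this was 8.35 ± 0.029 kb in WT and 3.93 ± 1.14 kb in KO (SD, n = 2). The window takes in the WT-only regions that lie nearer to Prxl2c or Cdk20 than to Ctsl. The ratio was 1.23 with equally long lists by fold, 1.54 with equally long lists by −log10 q, and 1.57 to 1.93 when 1 library was left out. For Adamts1 the ratio of WT to KO was 1.12 with all peaks, 0.540 with equally long lists by fold and 1.06 by −log10 q. In the LH experiment Ctsl took 169 ± 5.49 in hCG and 158 ± 1.42 in PMSG (SD, n = 2), a ratio of 1.07. Its direction turned with equally long lists, to 0.855 by fold and 0.981 by −log10 q.

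**Figure D4:**
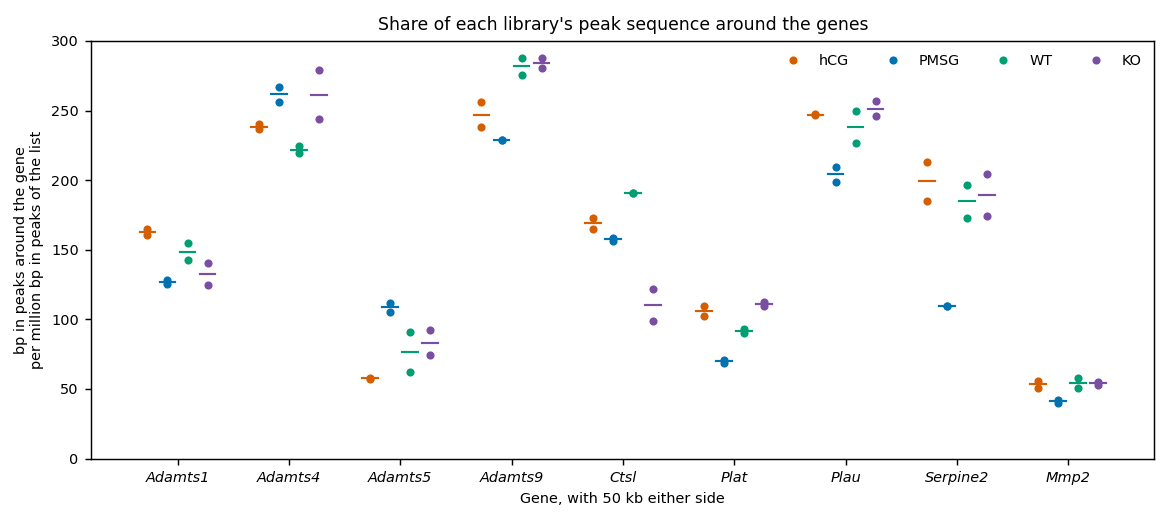
Sequence in peaks around each gene, in bp per Mb that the library's list covers; each point is 1 library and each bar the mean of 2. Serpine2 and Plat are higher in hCG than in PMSG, Adamts5 is lower, and Ctsl is higher in WT (191) than in KO (110).

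Peaks over the start or, where no start is listed, over an end of the gene were held in all 8 libraries for 7 of the 9 genes. They were the starts of Adamts1, Adamts9, Ctsl and Serpine2, the upper end of Adamts5 and the lower ends of Plat and Plau. Adamts4 and Mmp2 had no peak over either gene end in any library. Among promoter-table starts as a whole, 39.6% were held by all 8. This share, and the shares of starts below, are for listed starts alone. For Adamts5, Plat and Plau a peak over either gene end could count, which is a looser measure.

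At the Adamts1 start the peak was 1181 and 1162 bp wide in hCG and 644 and 685 bp in PMSG, without overlap. It was 2871 and 1484 bp wide in WT and 2904 and 1222 bp in KO, where 1 wide and 1 narrow interval stood in each group. WT 1 and KO 1 held 1 joined interval in that region and the other 6 libraries 2, and the summed widths were 2102 and 2131 bp in hCG, 1581 and 1650 bp in PMSG, 2871 and 2475 bp in WT and 2904 and 2201 bp in KO. At Serpine2 the widths were 977 and 906 bp in hCG and 678 and 618 bp in PMSG. At the lower end of Plat they were 877 and 913 bp in hCG and 679 and 683 bp in PMSG. At the upper end of Adamts5 they were 1201 and 1197 bp in WT and 2162 and 1985 bp in KO. Each WT library held 2 separate intervals in that region, 1893 and 1878 bp in sum, where each KO library held 1 joined interval. Over the 7 genes, the peak was wider in both hCG libraries than in both PMSG libraries for 5, which 82.9% of all starts held by these 4 libraries also were. It was wider in both PMSG libraries for 0 of the 7 (2.56% of all such starts).

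Fold enrichment went the other way. At the Ctsl start the folds were 11.7 and 11.1 in hCG and 13.7 and 14.1 in PMSG, and at Plat 14.5 and 12.9 against 15.5 and 16.0. Both PMSG folds exceeded both hCG folds for 6 of the 7 genes, as for 83.5% of all such starts. The exception, Adamts9, had 6.998 and 6.23 in hCG and 6.82 and 7.18 in PMSG.

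In the PR experiment both WT folds exceeded both KO folds at 3 of the 7 (Adamts5, Adamts9 and Plat), against 50.7% of all starts, and the reverse held at 0 (0.882% of all). The Ctsl start, with 12.2 and 13.0 in WT and 12.1 and 14.1 in KO, overlapped, in contrast to the WT-only regions below the gene. WT peaks were wider without overlap at 2 (Adamts9 and Plau; 30% of all starts) and KO peaks at 1 (Adamts5, joined as described above; 5.82%).

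**Figure D5:**
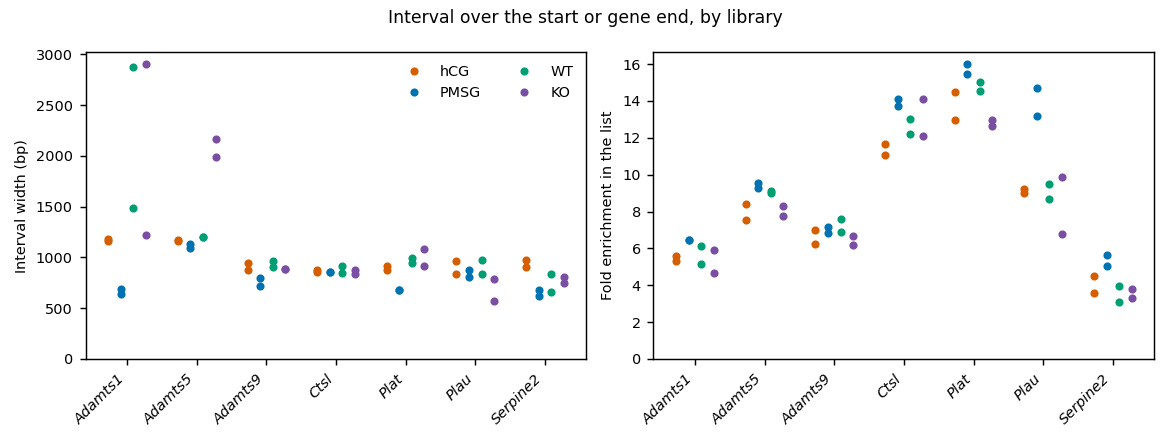
Width in bp (left) and fold over the caller's background (right) of the interval over the start or gene end of 7 genes; each point is 1 library. At Adamts1, Plat and Serpine2 both hCG intervals are wider than both PMSG intervals, and at Plau both PMSG folds (13.2 and 14.7) are above both hCG folds (9.03 and 9.21).

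Some regions held by all 4 LH libraries differed in rank between the groups. Of 46 such regions in equally long lists, 4 had both hCG percentiles at least 25 points above both PMSG percentiles (8.70%, against 6.17% of all shared regions), and 4 had the reverse (8.70%, against 7.31%). This gap was chosen after values were seen. Besides the region near Adamts1, the hCG-higher ones were chr6:92981381-92982061 at Adamts9 (folds 16.8 and 14.7 in hCG, 6.24 and 7.36 in PMSG), chr14:20891722-20892431 at Plau (14.4 and 14.4 against 7.09 and 8.56) and chr1:79874728-79875276 at Serpine2 (12.0 and 12.0 against 7.55 and 7.36). Each lay above its gene, at 36.9, 48.3 and 16.1 kb. The KO folds there, 15.1 and 16.6 at Adamts9, 11.8 and 12.4 at Plau and 11.1 and 8.15 at Serpine2, were all above the PMSG folds.

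The PMSG-higher regions were 3 at Plau, among them the lower gene end, and 1 at Serpine2. At Serpine2, chr1:79760880-79762020, inside Wdfy1, had folds of 7.93 and 7.82 in hCG and 15.0 and 16.5 in PMSG. At Plau, chr14:20803473-20804029 had 7.31 and 7.43 against 13.0 and 12.3, and chr14:20793622-20794901, which overlaps Camk2g, had 6.94 and 6.65 against 10.9 and 10.4. Plau and Serpine2 thus held regions that stood higher after hCG and others that stood higher before it. In the PR experiment 0 of 51 shared regions differed by this gap in either direction (0.278% of all shared regions with WT higher, 0.209% with KO higher).

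The hCG-only regions around the 9 genes were of modest strength in their lists. Their median rank percentile was 17.9 (lowest 0.135, highest 76.4), against 37.6 over all hCG-only regions, and their median width was 373.5 bp, against 318.5 bp. The 10 PMSG-only regions had a median of 37.3, against 33.8, and the 53 regions held by all 4 libraries 55.2, against 60.1. Plau showed the spread, from 69.4 at the region 7.17 kb above the gene to 0.135 at chr14:20796299-20796494, where folds were 2.05 and 2.02.

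Genes of the same pathways were counted from lists that were chosen with earlier results of these data known. Their LH counts are given for all peaks only, where both hCG lists were longer than both PMSG lists. Around 6 genes of matrix proteins that these enzymes cleave or bind, 22 of 61 regions were hCG-only (36.1%, to be read beside the 17.7% of all regions) and 4 were PMSG-only (6.56%, beside 10.4% of all regions). Col4a1, a basement membrane collagen, had 9 hCG-only and 2 PMSG-only regions, and Vcan, which encodes versican, 7 and 1. Around 15 other ADAMTS genes, 33 of 160 regions were hCG-only (20.6%) and 16 PMSG-only (10%, near the share of all regions), with Adamts12 at 7 and 5, Adamts6 at 5 and 1 and Adamts16 and Adamts19 at 3 and 3 each.

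Around the 14 cathepsin and cystatin genes, hCG-only regions numbered 23 of 109 (21.1%, beside 17.7% of all regions) and PMSG-only ones 7 (6.42%, beside 10.4%), with 5 and 1 at each of the cathepsin genes Ctsb and Ctsh. Around 9 other genes of the plasminogen system, 14 of 81 were hCG-only (17.3%) and 9 PMSG-only (11.1%), both near the share of all regions. Anxa2, a cell surface partner of plasminogen and its activators, had 5 and 3, and Serpina5, a serpin that inhibits urokinase, 2 and 4. Around 17 metalloproteinase and inhibitor genes 15 of 119 were hCG-only (12.6%) and 8 PMSG-only (6.72%), both below it. Timp2, an inhibitor that binds Mmp2, had 2 and 2, Timp4 3 and 0, Timp1 2 and 1 and Mmp16 1 and 2.

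In the PR experiment with all peaks, WT-only regions numbered 29 of 179 around the other ADAMTS genes (16.2%, beside 12.1% of all regions), 7 of 91 for the plasminogen system, 8 of 122 for cathepsins and cystatins, 15 of 137 for metalloproteinases and inhibitors and 12 of 73 for matrix proteins (16.4%), and KO-only regions 0 in each. In equally long lists, to be read beside 4.25% WT-only and 4.16% KO-only of all regions, the counts were 10 and 8 of 140 for the other ADAMTS genes (7.14% and 5.71%), 1 and 1 of 70 for the plasminogen system, 1 and 1 of 104 for cathepsins and cystatins, 3 and 3 of 107 for metalloproteinases and inhibitors and 2 and 4 of 48 for matrix proteins (4.17% and 8.33%). Adamts6 had 1 WT-only and 4 KO-only regions, Adamts3 2 and 0, and Adamts2 and Adamts13 1 and 1 each. Vcan had 1 and 2, and Mmp11, Timp4 and Acan had 1 and 1 each. Cst6, a cystatin gene, had 1 WT-only region, and the KO-only region of the cathepsin list lay in the windows of both Ctsk and Ctss. Plg, which encodes plasminogen, had 1 WT-only region and Anxa2 1 KO-only region.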

How the data were processed

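ATAC-seq peak lists of 8 granulosa cell libraries, 1 list per library, were used as deposited in narrowPeak layout without a header. Bowtie2, MACS2 and mm10 are named in the submitters' processing notes, without versions or roles; filters and any Tn5 shift are not given in the sources used here. Peak names of the PR lists carry a prefix naming filtering and marked duplicates, and those of the LH lists do not. Column 7 of the authors' lists was read as a linear ratio, the fold enrichment over background, and column 9 as −log10 of a q-value; no deposited list held a −log10 q under 10. The lists hold no read counts, so depth and counting intervals are not given.

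Intervals on chromosomes 1 to 19 and X with the same start and end were collapsed to 1, keeping the best fold. Intervals sharing at least 1 bp were merged within each experiment, or over all 8 libraries, and overlapped with gene bodies (RefSeq, GRCm38) plus 50 kb. mm10 and GRCm38 name the same assembly. Groups followed titles. Group-only calls, covered length with an exact permutation test, ranks and motifs were computed in Python 3.11.15 (numpy 2.4.6, scipy 1.17.1; figures in matplotlib 3.10.9) and tested on simulated peak lists. The labels do not tie replicate numbers of different groups to a shared litter or day.

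Named were all 9 genes, the region over each start, up to 3 group-only regions per gene in each experiment by best mean fold rank, and the 2 genes of each pathway list with the most group-only regions (ties included). The other regions printed were chosen after their values were seen. The shared-rank comparison, the 8-library patterns and ranking by −log10 q were added after seeing the data. Members and lists were chosen with earlier results of these data known. The alternatives were equal list lengths, stricter thresholds, other windows and leaving out each library.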

Additional observations from a re-analysis of the deposited data

How the results depend on the processing

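Peak lists without read counts limit what can be said of any single region, and 2 libraries a group allow no permutation p under 0.333. A group-only call needs fewer libraries when 1 is left out, so such counts could rise or stay but scarcely fall. Leaving out a library therefore cannot show that a count holds. The hCG-only count of 27 was 7 in the best 20000 intervals and 14 in gene bodies alone, and 29 to 34 when 1 library was left out. The PMSG-only count of 10 was 17 with equally long lists, 5 in the best 20000, 3 in gene bodies and 4 with 10 kb flanks, and 10 to 12 when 1 library was left out. The WT-only count of 18 was 5 with equally long lists, 6 with equally long lists by −log10 q, 0 in the best 20000, 7 in gene bodies and 10 with 10 kb flanks, and 21 to 32 when 1 library was left out. The KO-only count of 0 was 4 with equally long lists, 1 by −log10 q and 2 in the best 20000, and 0 to 1 when 1 library was left out. The covered share of WT minus KO, 0.00113 points, was -0.0141 with equally long lists and -0.00125 to 0.00352 when 1 library was left out; the cause was not tested. That of hCG minus PMSG kept its direction in every alternative run, from 0.00266 to 0.0187 points. The hCG, WT and KO pattern without PMSG went from 11 to 5 with equally long lists and to 11 to 18 with 1 library left out, the pattern of 6 libraries with Pgr from 2 to 1 and 2 to 3, and the hCG and WT pattern from 5 to 1 and 5 to 12. With a rank gap of 10 points, 7 shared regions stood higher in hCG and 12 in PMSG, in place of 4 and 4. Among the summary results, with the left-out runs included, 61 alternatives kept the value within 1.5 times or its direction, 25 moved it and 3 reversed it. No paired analysis was possible because the labels tie replicate numbers across groups to no shared animal, litter or day, and the counts of regions come from no test.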
